A study of Mus musculus with 6 samples.

Results

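The mRNA storage particle of the mouse egg is described here through 10 genes, chosen by symbol from 24062 in the count table: Zar1, its paralogue Zar1l, Ybx2, Ybx3, Lsm14a, Lsm14b, Eif4enif1, Eif4e1b, Ddx6 and Patl2. Zar1 led the choice because it had already been seen to differ between R26K and H3.3 eggs, so its values and its call in that comparison are a description that supports nothing. The others joined it for their roles, also with earlier results of these data known. The eggs were at metaphase II, the ovulated and unfertilized stage, and came from superovulated females, 8 weeks old, of the line HISRainbow;Figla-iCre. That line carries a multicolour transgene and a recombinase named for Figla, an oocyte gene. Eggs were sorted under a confocal microscope by the H3.3 form they made: H3.3 with arginine 26 replaced by lysine and joined to eCFP (H3.3R26K-eCFP, here R26K), H3.3 with lysine 27 replaced by arginine and joined to mCherry (H3.3K27R-mCherry, here K27R), or H3.3 with no substitution, carrying eGFP (H3.3-eGFP, here H3.3). Each group had 2 libraries, called biological replicates in the labels. How many eggs were pooled for a library, and whether separate females gave them, is not stated in the labels, so p-values measure the spread between libraries. Tag and substitution changed together, so they cannot be told apart.

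Gene counts totalled 39603440 and 33786225 in the R26K libraries, against 10803477 to 12748821 in the libraries of K27R and H3.3. At least 1 count was seen for 12135 and 12112 genes in R26K, with 10715 and 7405 genes in K27R and 7590 and 7392 genes in H3.3. All 10 egg markers, among them Gdf9 and Zp3, had counts in every library. Their summed levels were lowest in R26K, at 21470 and 20400 CPM (counts scaled to a common library total, with TMM factors between libraries), against 26640 and 33670 CPM in K27R eggs and 26310 and 30510 CPM in H3.3. Of 16 markers of the surrounding cumulus and granulosa cells, 12 and 8 had a count in the R26K libraries, 8 and 2 in those of K27R, and 2 and 8 in those of H3.3. Their summed levels were 111 and 132 CPM in R26K, 258 and 15.7 CPM in K27R eggs, and 23.8 and 502.5 CPM in H3.3, and Lhcgr and Pgr had no count anywhere. Of 6 markers of epithelium and stroma, summed levels were 26.75 and 0.756 CPM in R26K, with Krt8 at 11.7 and Krt18 at 10.5 CPM in replicate 1, and 0.814 CPM or less in each other library. The lower egg marker sum in R26K was not shared by every marker. Dppa3 was at 4425 and 3280 CPM in R26K and 8105 to 12380 CPM elsewhere, and Bmp15 and Zp3 were also lowest there. Padi6 went the other way, at 452 and 494.5 CPM in R26K against 154 to 293 CPM, and the remaining egg markers overlapped. The part of these cells, of the lower summed level of egg markers in R26K and of depth in the results below was not tested. H3f3b, the main gene for endogenous H3.3, was at 2830 and 1910 CPM in R26K and 3157 to 4477 CPM elsewhere. Transgene reads could be counted with it. H3f3a, the other such gene, was at 35.7 and 38.2 CPM in R26K and 63.9 to 104.8 CPM elsewhere. Among tested genes, 8.54% had both R26K libraries below the other 4.

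A growing oocyte makes mRNA that must last through a period without transcription, and much of it is kept untranslated in ribonucleoprotein particles. ZAR1 and ZAR1L bind RNA through a zinc finger domain, the Y-box proteins YBX2 and YBX3 coat mRNA, and the helicase DDX6 with LSM14, PATL and 4E-T (encoded by Eif4enif1) represses translation at the cap. The egg-specific cap-binding protein EIF4E1B takes part in this repression. In mouse, loss of Zar1 arrests most embryos around the first cleavage, and loss of Ybx2 leaves females sterile with unstable oocyte mRNA.

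The sequences before the starts of 4 of these genes are shown because Zar1, Ybx3 and Lsm14b had the largest differences among the members with at least 50 CPM on average, and Zar1l is the paralogue of Zar1. They are the parts of the RefSeq window of 250 bases before the start (build GRCm38.p6, the build of mm10) that lie outside the gene as GENCODE draws it. Each is written along the gene's own strand. Capitals mark a match on either strand to the E-box (CANNTG, the motif of FIGLA) or to the core element of the oocyte homeobox protein NOBOX (TAATTG).
Zar1, chr5:72581255-72581334, minus strand: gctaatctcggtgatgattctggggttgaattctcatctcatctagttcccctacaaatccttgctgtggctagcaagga
Zar1l, chr5:150518165-150518409, minus strand: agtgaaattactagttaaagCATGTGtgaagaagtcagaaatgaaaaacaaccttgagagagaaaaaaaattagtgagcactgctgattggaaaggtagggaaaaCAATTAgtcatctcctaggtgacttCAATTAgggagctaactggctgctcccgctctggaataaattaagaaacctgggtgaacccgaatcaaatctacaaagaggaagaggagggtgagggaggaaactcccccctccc
Ybx3, chr6:131388477-131388700, minus strand: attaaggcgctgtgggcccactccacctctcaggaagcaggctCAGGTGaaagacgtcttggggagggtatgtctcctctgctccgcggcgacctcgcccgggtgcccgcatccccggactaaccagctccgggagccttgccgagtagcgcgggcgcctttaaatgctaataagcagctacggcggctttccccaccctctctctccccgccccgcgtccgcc
Lsm14b, chr2:180024737-180024986, plus strand: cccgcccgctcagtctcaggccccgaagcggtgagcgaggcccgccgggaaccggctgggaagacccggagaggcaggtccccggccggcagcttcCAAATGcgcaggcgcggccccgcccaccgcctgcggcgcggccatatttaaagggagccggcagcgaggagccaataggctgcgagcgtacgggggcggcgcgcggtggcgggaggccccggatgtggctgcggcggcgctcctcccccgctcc

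In the full windows of 250 bases, Zar1 had 2 E-boxes, both in the stretch not printed, and no NOBOX element, whereas Zar1l had 1 E-box and 2 NOBOX elements. Ybx3 and Lsm14b each had 1 E-box. Of 32851 such windows in RefSeq, 66.2% held an E-box and 31.8% held 2 or more, while 7.17% held the NOBOX element and 0.511% held 2 or more. The Zar1l window had a GC content of 42.8%, against 55.6% for Zar1, 67.2% for Ybx3 and 76.0% for Lsm14b, and the median window had 52.4%. These matches describe letters only.

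Zar1, a maternal-effect gene, was far higher in both R26K libraries than in any other. It was at 4316 and 4089 CPM in R26K, 177 and 217 CPM in K27R eggs, and 194 and 269.5 CPM in H3.3, so that both R26K libraries lay above the remaining 4 (as for 2875 of the 10667 genes tested) and the K27R and H3.3 libraries overlapped. The R26K mean was 18.1-fold that of H3.3 in the fit (log2 fold change 4.18 ± 0.28, SE, 2 libraries per group). Replicates differed by 1.06-fold in R26K, 1.23-fold in K27R and 1.39-fold in H3.3. Zar1 lies on the minus strand of chromosome 5 from 72576806 to 72581254 (mm10), and the pseudogene Gm15847 matches its mRNA at 95.2% over 1083 bases, so reads of the copy could be counted with it.

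Zar1l, the paralogue, showed no such separation. It was at 22.4 and 24.2 CPM in R26K, 33.1 and 0 CPM in K27R eggs, and 23.3 and 3.65 CPM in H3.3, and the groups overlapped. The library without a count was K27R replicate 2, where 3 counts would be 0.285 CPM. A 0 there was common for genes at this level. Of genes that averaged 10 to 30 CPM in the other 5 libraries, 1.08% and 1.04% had no count in R26K replicates 1 and 2, 3.87% and 29.1% in those of K27R, and 28.2% and 32.0% in those of H3.3. Zar1l (chromosome 5, 150507055 to 150518164) had a log2 fold change of 0.79 ± 2.53 in R26K against H3.3 and 0.30 ± 2.52 in K27R against H3.3. Per kilobase of mRNA, Zar1 was at 121 and 106 times the level of Zar1l in R26K, 3.36 times in K27R replicate 1, and 5.22 and 46.2 times in H3.3. Zar1l itself differed 6.37-fold between the H3.3 replicates.

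**Figure D1:**
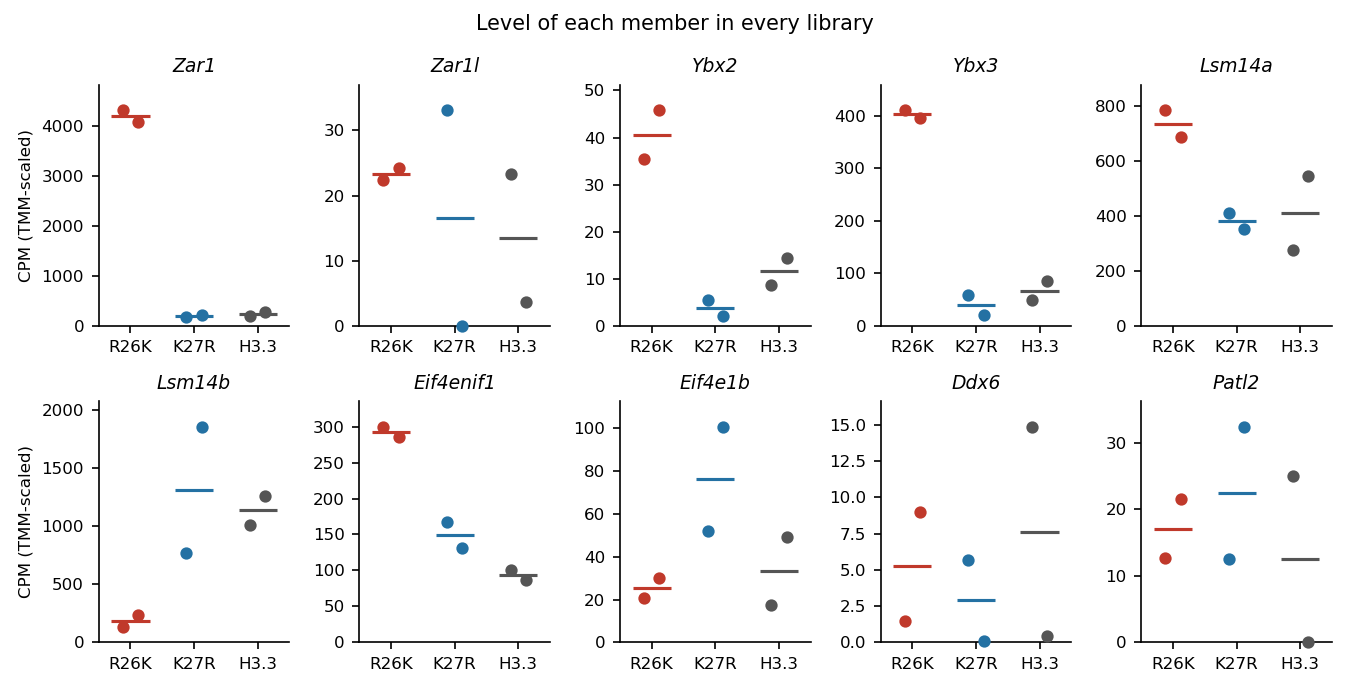
Level of each of the 10 genes in every library, in TMM-scaled CPM on a linear axis from 0 with its own range per gene; points are the 2 libraries of a group and bars are group means. Both R26K libraries stand above all others for Zar1, Ybx2, Ybx3, Lsm14a and Eif4enif1 and below all others for Lsm14b, while replicates of Zar1l, Ddx6 and Patl2 lie far apart.

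Both Y-box genes were highest in R26K. Ybx3 was at 411 and 396 CPM in R26K, 58.2 and 19.9 CPM in K27R eggs, and 49.5 and 84.9 CPM in H3.3. Ybx2, the germ-cell Y-box protein, was at 35.4 and 45.8 CPM in R26K, 5.54 and 2.18 CPM in K27R eggs, and 8.73 and 14.4 CPM in H3.3. In both genes the R26K libraries lay above the other 4, and for Ybx2 both K27R libraries also lay below both H3.3 libraries. The log2 fold change in R26K against H3.3 was 2.59 ± 0.60 for Ybx3 (chromosome 6, 131364855 to 131388476) and 1.81 ± 1.37 for Ybx2 (chromosome 11, 69935796 to 69941605). Their order was the same in every library: per kilobase, Ybx3 exceeded Ybx2 by 10.5 and 7.81 times in R26K, 9.48 and 8.24 times in K27R eggs, and 5.12 and 5.31 times in H3.3. The broadly expressed Y-box gene Ybx1, added like Eif4e3 and Patl1 below after values were seen, was below Ybx3 per kilobase in 5 libraries, with Ybx3 over Ybx1 at 5.20 and 5.31 in R26K, 1.15 and 0.981 in K27R eggs, and 1.36 and 1.66 in H3.3.

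The LSM14 genes stood on opposite sides in R26K, and which of the genes was more abundant differed between the groups. LSM14A and LSM14B are scaffold proteins that bind DDX6 and 4E-T. Lsm14b was at 132 and 237.5 CPM in R26K, 774 and 1855 CPM in K27R eggs, and 1011 and 1263 CPM in H3.3, so that both R26K libraries lay below the other 4, where 8.54% of tested genes lay. Lsm14a was at 784 and 687 CPM in R26K, 410.2 and 352 CPM in K27R eggs, and 275 and 544 CPM in H3.3, with both R26K libraries above the other 4. Per kilobase, Lsm14a over Lsm14b was 5.16 and 2.52 in R26K, 0.462 and 0.166 in K27R eggs, and 0.237 and 0.375 in H3.3. The log2 fold changes in R26K against H3.3 were -2.62 ± 0.51 for Lsm14b (chromosome 2, 180024987 to 180035465) and 0.84 ± 0.37 for Lsm14a (chromosome 7, 34344646 to 34393315). Exons of Lsm14a share 344 bases with the antisense gene Gm12764, and whether counting used strand is not stated in the labels.

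Of the cap-bound pair, Eif4enif1 was graded over the groups and Eif4e1b was highest in K27R. 4E-T, the product of Eif4enif1, ties the cap-binding protein to the repressors. Eif4enif1 was at 299.6 and 286 CPM in R26K, 168 and 131 CPM in K27R eggs, and 101 and 87.2 CPM in H3.3, and no group overlapped another. Its log2 fold change was 1.64 ± 0.33 in R26K against H3.3 (chromosome 11, 3202392 to 3244588). Among all tested genes, groups did not overlap for 60.1% in R26K against H3.3, 25.5% in K27R against H3.3 and 53.8% in K27R against R26K. Eif4e1b was at 20.9 and 30.1 CPM in R26K, 52.0 and 100.5 CPM in K27R eggs, and 17.4 and 49.3 CPM in H3.3. R26K and H3.3 thus overlapped, and K27R lay above both, though close to H3.3 (52.0 against 49.3 CPM). Its log2 fold change was 1.19 ± 0.89 in K27R against H3.3 (edgeR adjusted p = 0.668). In K27R against R26K it was 1.58 ± 0.90 (edgeR adjusted p = 0.576). A processed pseudogene, Gm5705, matches Eif4e1b (chromosome 13, 54783998 to 54788459) at 95.0% over 726 bases. Eif4e3, another cap-binding gene, had 43.2 and 26.5 times the level of Eif4e1b per kilobase in R26K, 13.3 and 7.28 times in K27R eggs, and 43.2 and 14.0 times in H3.3. Eif4e was also added after values were seen. Its ratio to Eif4e1b per kilobase was 2.18 and 1.18 in R26K, 0.778 and 0.546 in K27R eggs, and 3.74 and 1.69 in H3.3.

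The groups overlapped for Ddx6 and Patl2, whose replicates lay far apart. Ddx6, the central helicase, was at 1.49 and 8.98 CPM in R26K, 5.70 and 0.0950 CPM in K27R eggs, and 14.9 and 0.425 CPM in H3.3. Replicates thus differed 6.01-fold in R26K and 35.0-fold or more in K27R and H3.3, and the groups overlapped. It was the lowest of the 10 genes per kilobase in every group, and a processed pseudogene, Gm13410, matches it (chromosome 9, 44604892 to 44640731) at 94.5% over 1218 bases. Patl2, an oocyte RNA-binding repressor, was at 12.7 and 21.5 CPM in R26K, 12.5 and 32.4 CPM in K27R eggs, and 24.98 and 0 CPM in H3.3 (chromosome 2, 122120108 to 122186189). Its somatic paralogue Patl1 was at 12.2 and 29.8 CPM in R26K, 40.9 and 15.4 CPM in K27R eggs, and 0 and 24.5 CPM in H3.3. In H3.3 each library therefore had counts for only 1 of the PATL genes, Patl2 in replicate 1 and Patl1 in replicate 2.

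Levels per kilobase, used to compare genes, gave a different order in R26K. Lengths were those of the longest coding transcript, while counts may cover all exons. These were 1429 and 3465 bases for Zar1, 2944 and 6136 for Lsm14a, and 895 by either measure for Zar1l. Ratios between genes and the order of close genes therefore depend on the length used. In R26K the order was Zar1, Lsm14a, Ybx3, Eif4enif1, Lsm14b, Zar1l, Ybx2, Eif4e1b, Patl2 and Ddx6. The neighbours Eif4enif1 and Lsm14b, and Zar1l and Ybx2, overlapped between libraries. Lsm14b was first in both K27R and H3.3, at 512 and 443 CPM per kilobase on average, ahead of Zar1 at 138 and 162 and Lsm14a at 129.5 and 139. Zar1 and Lsm14a overlapped in each of these groups. In R26K, Zar1 averaged 2941 CPM per kilobase, above 99.8% of 10184 tested genes with a length, against 95.5% in K27R and 96.1% in H3.3. Ddx6 was above 16.5% of these genes in R26K, 20.1% in K27R and 37.3% in H3.3.

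Summed per kilobase, the 10 genes came to 3702 and 3557 CPM in R26K, 712 and 1102 CPM in K27R eggs, and 729.6 and 971 CPM in H3.3. Zar1 made up 81.6% and 80.5% of the sum in R26K, 17.4% and 13.8% in K27R eggs, and 18.6% and 19.4% in H3.3. Lsm14b made up 1.39% and 2.60% in R26K, 42.3% and 65.6% in K27R eggs, and 54.0% and 50.7% in H3.3. Without Zar1 the sums overlapped, at 682 and 695 CPM per kilobase in R26K, 588 and 950.4 in K27R eggs, and 594 and 782 in H3.3. CPM are shares of a library, and in pooled eggs fewer eggs with a transcript and fewer copies per egg cannot be told apart.

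**Figure D2:**
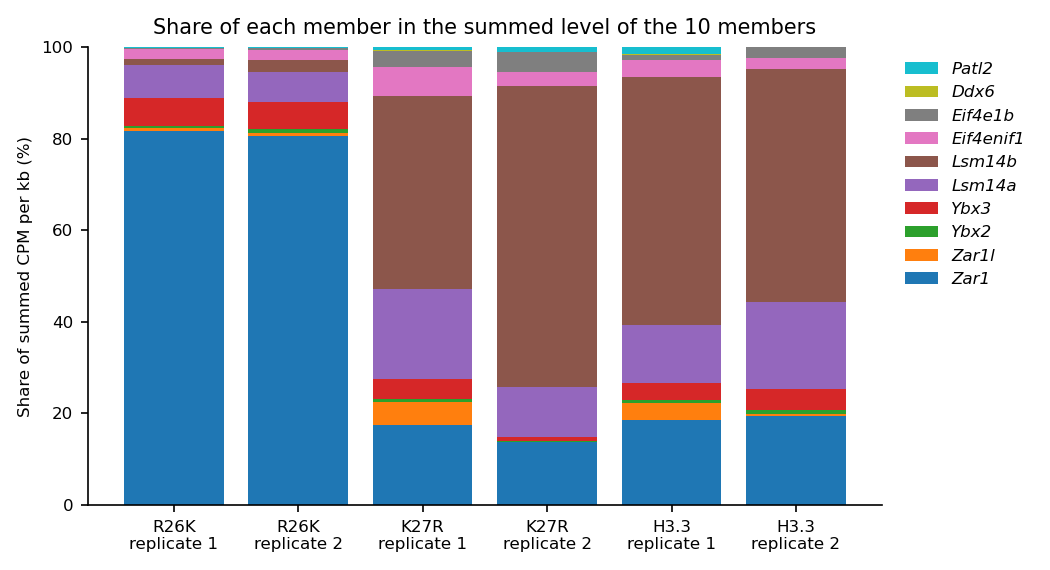
Share of each gene in the summed CPM per kilobase of the 10 genes, in percent, with 1 bar per library. Zar1 fills 81.6% and 80.5% of the R26K bars, and Lsm14b is the widest band in the K27R and H3.3 bars, at 42.3% to 65.6%.

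In R26K against H3.3, 0.619% of 10667 tested genes were called (0.403% higher and 0.216% lower) in the fit of all genes, by an edgeR quasi-likelihood test with a Benjamini-Hochberg adjusted p under 0.05. Zar1 was the 1 member among them, which the choice of Zar1 had fixed. All 10 genes were tested. Groups did not overlap for 6 of the 10, against 60.1% of tested genes: 5 members were higher and 1 was lower, against 44.9% and 15.2%. The members' median log2 fold change was 0.82, with 7 above 0, beside a median of 0.66 for all tested genes. Over the 5 members with a mean of at least 50 CPM it was 1.64, with 4 above 0, and over the 2858 genes of that level it was 0.03. The call of Zar1 did not hold without either K27R library, at log2 fold changes of 4.18 in both cases, in a fit of the 4 libraries alone, or after the correction for GC content and length described below. Nothing is read from these counts.

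K27R against H3.3 compared the groups other than R26K, which differed in both tag and substitution. No member passed, as 0.0% of all tested genes passed by edgeR (759 had an unadjusted p under 0.05). None of the members had an unadjusted p under 0.05, and DESeq2, which called 685 genes, called none of them. Zar1 averaged 197 ± 28.2 CPM in K27R and 232 ± 53.4 CPM in H3.3 (SD, n = 2 each), a log2 fold change of -0.23 ± 0.25 (edgeR adjusted p = 0.830, sign turned without H3.3 replicate 2). The smallest adjusted p of the members was 0.522, for Eif4enif1, with a log2 fold change of 0.67 ± 0.32. The groups of Eif4enif1 and Eif4e1b did not overlap with K27R higher, nor did those of Ybx2 with K27R lower, while 15.9% and 9.62% of all tested genes (25.5% together) were so placed. Lsm14a (-0.10 ± 0.36) and Lsm14b (0.21 ± 0.48) differed by less than their errors. Of the 10 members 5 lay above 0, with a median of 0.05, beside 0.12 for all tested genes.

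K27R against R26K shares its R26K libraries with the first comparison and so carries the choice of Zar1 with it. Zar1 had a log2 fold change of -4.41 ± 0.28 in K27R and was the only member called, where 0.375% of tested genes were (0.169% higher and 0.206% lower). This call did not hold without either K27R library, at -4.28 and -4.57, or after correction for GC content and length, at -2.02. Lsm14b was 7.11-fold higher in K27R by the fit (2.83 ± 0.51, edgeR adjusted p = 0.113), and Ybx3 was lower (-3.37 ± 0.63, adjusted p = 0.120). Eif4enif1 (-0.97 ± 0.32) and Lsm14a (-0.95 ± 0.37) both had an adjusted p of 0.346. Groups did not overlap for Lsm14b and Eif4e1b, higher in K27R eggs, and for 5 members lower in K27R, against 17.5% and 36.3% of all tested genes, or 53.8% together.

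**Figure D3:**
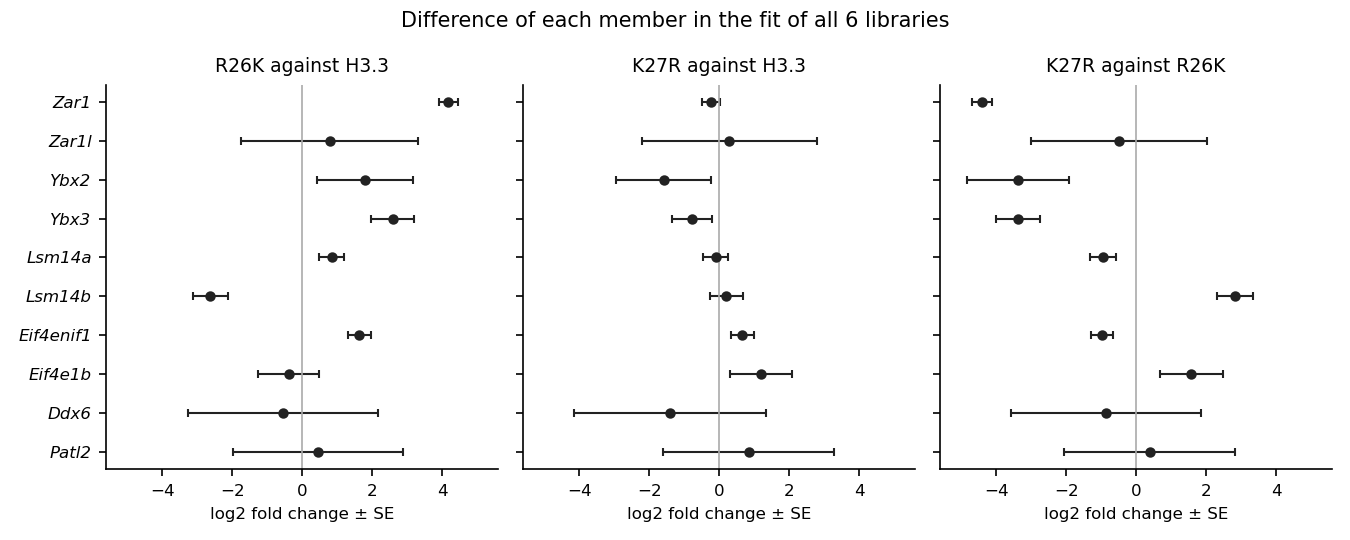
Log2 fold change (first-named group over the second) with its standard error for each of the 10 genes in the fit of all 6 libraries, in 3 comparisons. Zar1 is at 4.18 in R26K against H3.3 and -4.41 in K27R against R26K, with all K27R against H3.3 values between -1.58 and 1.19; the widest error bars belong to Zar1l, Ddx6 and Patl2.

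Of the members above all other libraries in R26K, Zar1, Ybx2 and Ybx3 have the most GC-rich mRNA of the 10, and over genes of sufficient level the log2 fold change in R26K against H3.3 was higher at higher GC content. The longest coding transcript has a GC content of 63.4% for Ybx2, 62.1% for Zar1 and 57.2% for Ybx3. Next are Eif4e1b at 52.8%, Zar1l at 52.4% and Patl2 at 50.1%, whose R26K and H3.3 groups overlapped, and Eif4enif1 at 50.2%. Lsm14b is at 49.8% and Ddx6 at 43.4%. Lsm14a, also above all other libraries in R26K, is at 46.0%. Among genes that averaged 50 CPM or more, the median log2 fold change in R26K against H3.3 was -0.94 below 40% GC (205 genes), 0.57 from 50 to 55% (639 genes) and 2.34 at 60% or more (41 genes). Spearman's rho over 2735 such genes was 0.436, a description across genes, which share libraries. It was 0.0736 in K27R against H3.3. The mean of 50 CPM includes the R26K libraries, so genes low elsewhere could enter through R26K. Zar1 ranked 9 of the 41 genes of at least 60% GC. After each library was corrected for GC content and length, Zar1 had a log2 fold change of 1.45 ± 0.26 in R26K against H3.3 and no longer passed. Under the same correction Ybx3 was at 0.68 ± 0.53, Eif4enif1 at 0.71 ± 0.31, and Ybx2 changed sign to -1.36 ± 1.35. Lsm14b moved away from 0, to -3.37 ± 0.62. The correction takes out any difference that follows GC content or length, whatever its source.

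**Figure D4:**
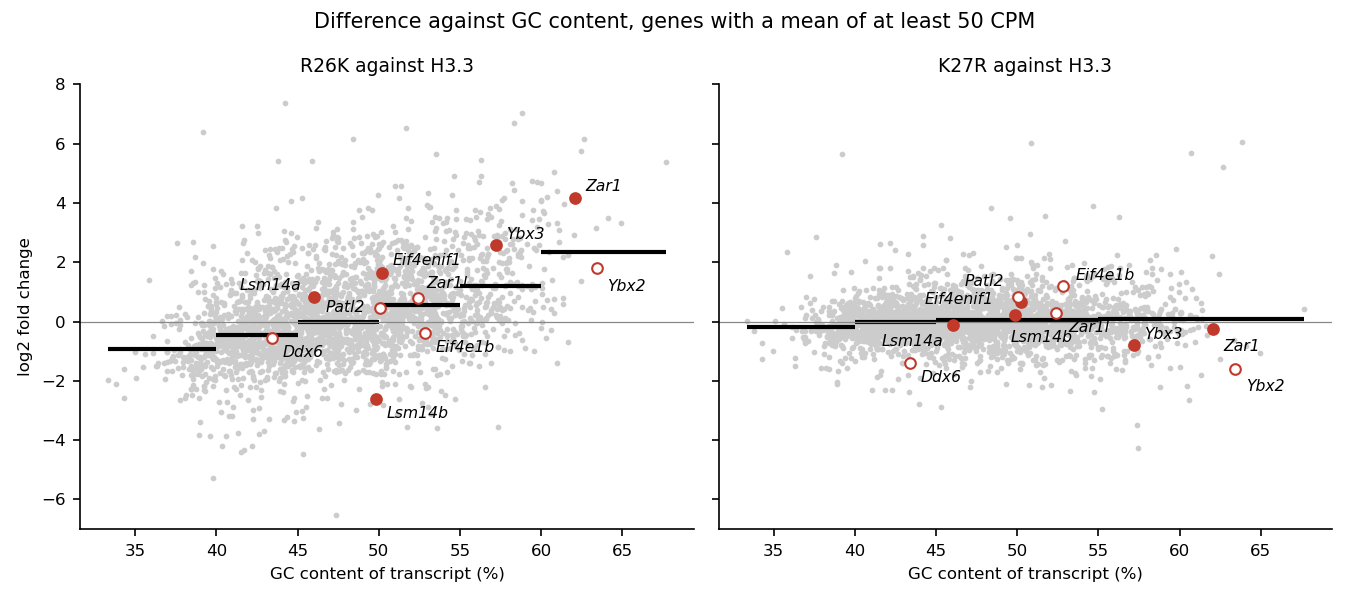
Log2 fold change against the GC content of the longest coding transcript for genes that averaged 50 CPM or more (grey), in R26K against H3.3 (left) and K27R against H3.3 (right). Black lines are medians within GC bins, filled red points are members of at least 50 CPM and open red points are the other members; 9 and 5 grey points lie beyond the vertical axis. The medians climb with GC content on the left and stay between -0.17 and 0.10 on the right.

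A wider list of 48 genes of mRNA storage, repression and decay was read from the same fit. It holds deadenylation, decapping and RNA-binding partners such as Cpeb1, Dazl, Pum2 and Btg4, and 42 were tested. In R26K against H3.3, 1 of the 42 fell and none rose, where 0.216% of all tested genes fell and 0.403% rose. In K27R against R26K, 1 was called as higher in K27R and none as lower, where 0.169% and 0.206% of all tested genes were, and none was called in K27R against H3.3 by edgeR, where 1 had an unadjusted p under 0.05 and DESeq2 called 1. Without either K27R library, none of the list was called in the first comparison or in K27R against R26K, and a fit of the 4 libraries compared called none in R26K against H3.3.

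Among the most abundant genes of this list, Btg4, the adaptor of maternal mRNA decay, averaged 9923 CPM over all libraries and had a log2 fold change of -0.28 ± 0.22 in R26K against H3.3. Dazl, a translational regulator, had -0.64 ± 0.28 and G3bp2, a stress granule protein, -0.70 ± 0.37. A further 3 genes were chosen after their values were seen. Atxn2l was at 729.7 and 904.5 CPM in R26K, 86.9 and 157 CPM in K27R eggs, and 31.7 and 77.3 CPM in H3.3 (3.91 ± 0.56 in R26K against H3.3, edgeR adjusted p = 0.0521). Pum2 was at 14.9 and 35.2 CPM in R26K, 164.5 and 149.7 CPM in K27R eggs, and 183 and 311 CPM in H3.3 (-3.30 ± 0.58, adjusted p = 0.0771). Fxr1 was at 74.6 and 89.6 CPM in R26K, 264.5 and 224 CPM in K27R eggs, and 346 and 333 CPM in H3.3 (-2.05 ± 0.31, adjusted p = 0.0545). The R26K libraries lay above the other 4 for Atxn2l, as for 2875 of the 10667 genes tested. They lay below the other 4 for Pum2 and Fxr1, as for 8.54% of tested genes. The GC content of the longest coding transcript is 57.25% for Atxn2l, 42.23% for Pum2 and 39.38% for Fxr1. All 3 genes thus moved in the direction of the median gene of similar GC content and at least 50 CPM. The part of GC content in their differences was not tested. The median of the 42 in R26K against H3.3 was 0.39, with 27 above 0, beside 0.66 for all tested genes.

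The genes whose level followed Zar1 most closely over the 6 libraries, among 2741 with a mean of at least 50 CPM, were Nat14 (Pearson r = 0.999 of log2 CPM with 1 CPM added), Zdhhc7 (0.997), Nsmce4a (0.994), Pcbp1 (0.993) and Mlf2 (0.992). The 6 points fall into the R26K libraries and the other 4, which sets such values. The mean of at least 50 CPM was taken over all 6 libraries, so the search favoured genes high in R26K. Nat14 and Zdhhc7 averaged under 50 CPM in K27R and in H3.3 and passed only through R26K. Nat14 was at 325 and 320.1 CPM in R26K, 37.2 and 39.3 CPM in K27R eggs, and 35.3 and 51.2 CPM in H3.3. The GC content of these 5 mRNAs ran from 51.0% to 58.1%. Within the particle, r with Zar1 was 0.926 for Ybx3, 0.875 for Ybx2, 0.870 for Eif4enif1, 0.860 for Lsm14a and -0.927 for Lsm14b, and 0.367 or lower for Zar1l, Patl2, Ddx6 and Eif4e1b.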

How the data were processed

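Polyadenylated RNA of 6 egg libraries was sequenced after SMARTer Ultra Low cDNA synthesis and Nextera library preparation, per the labels. The submitters' processing notes name mm10, featureCounts, TopHat2 2.1.0, SAMtools 1.3 and cutadapt 1.9.1; annotation, strand setting and handling of multiple hits are not stated. The authors deposited raw counts of reads per gene as whole numbers; every column matched 1 sample.

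CPM were computed from the deposited counts with TMM factors. Genes kept by filterByExpr (10667) were tested with edgeR 4.0.16 (R 4.3.3) in 1 fit of 3 group means with 3 residual degrees of freedom, two-sided, adjusted by Benjamini-Hochberg over all of them. Standard errors are the log2 fold change over the square root of F. The steps were tested on counts simulated from the gene means and spreads of these data, with no trend in GC content. That test cannot speak to the GC trend. Lengths and GC content are those of the longest coding transcript in GENCODE M21, where 22750 of 24062 symbols matched. Copies are matches of at least 94% identity over 300 bases. The GC and length correction added a loess fit over 2735 genes to the offsets.

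The members and lists were chosen with earlier results of these data known. Named are the members, the called genes and the 3 most abundant of the wider list, and the 5 genes most correlated with Zar1. A gene that this rule names is not reported here. Alternatives were DESeq2 1.42.0, other scalings and filters, a fit restricted to the 4 libraries compared, a block on replicate number, each library left out, and the GC correction. Counting limits cover counting error only.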

Additional observations from a re-analysis of the deposited data

How the results depend on the processing

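The number of calls depended on the setting, and the cause was not tested. In R26K against H3.3, 66 genes were called; DESeq2 gave 1644, no filter 241, a mean of at least 10 CPM 157, a fit of the 4 libraries compared 0, the replicate block 260 and the GC and length correction 22, and leaving out 1 library gave 1 to 193. In K27R against R26K, 40 were called, and in the same order (the fit of 4 aside) 759, 156, 95, 195 and 18, with 0 to 140 without 1 library. In K27R against H3.3, DESeq2 gave 685 and leaving out 1 library 0 to 5, in place of 0. Upper-quartile scaling moved the median of all genes by -0.20 (log2) in R26K against H3.3 and 0.22 in K27R against R26K; the calls split 31 higher to 27 lower in place of 43 to 23, and 23 to 17 in place of 18 to 22.

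Of the 10 members, 1 was called in R26K against H3.3; DESeq2 called 4, no filter and the block 2 each, the fit of 4 and the GC correction 0, and leaving out 1 library 0 to 2. In K27R against R26K, also 1, DESeq2 called 4, no filter and the block 3 each, the GC correction 0 and leaving out 1 library 0 to 3. Zar1 kept its direction in both under every setting run. Its log2 fold change of 4.18 was no longer called in the fit of 4 or without either K27R library, and was called without either R26K or either H3.3 library; without 1 library it ran from 3.95 to 4.44 in R26K against H3.3 and from -4.57 to -4.28 in K27R against R26K. Corrected for GC content and length, it was 1.45 and -2.02 and was not called in either comparison. Lsm14b was called in both by DESeq2, without a filter, with the block and without either R26K library. Of the wider list 1 was called in R26K against H3.3, where DESeq2 gave 9, upper-quartile scaling 2, no filter 6, a mean of at least 10 CPM 3, the fit of 4 gave 0, the block 6, and leaving out 1 library 0 to 4. In K27R against R26K it was also 1, with 7 by DESeq2, 2 without a filter, 4 with the block and 0 to 4 without 1 library, and DESeq2 gave 1 in K27R against H3.3.

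Of 237 log2 fold changes of the members under the settings other than leaving out 1 library, 218 kept direction and side of the threshold, 3 lost the call, 12 gained one and 4 turned sign; with 1 library left out these were 153, 4, 6 and 17 of 180. With the block, Zar1l was at -0.73 in K27R against H3.3 and Ddx6 at 2.58 in R26K against H3.3; with the GC correction, Ybx2 was at -1.36 and Patl2 at -0.21 in R26K against H3.3. Leaving out 1 library, values in K27R against H3.3 ran from -0.44 to 0.019 for Zar1, -11.15 to 2.19 for Zar1l, -0.50 to 0.47 for Lsm14a, -0.56 to 0.71 for Lsm14b, -6.25 to 2.77 for Ddx6 and -0.16 to 11.88 for Patl2. In K27R against R26K they ran from -11.94 to 0.51 for Zar1l, -5.70 to 0.95 for Ddx6 and -0.45 to 0.92 for Patl2, and in R26K against H3.3 from -0.96 to 0.55 for Eif4e1b, -2.35 to 3.59 for Ddx6 and -0.55 to 11.47 for Patl2. Whether same-numbered libraries share a day is not stated in the labels. Deviations of same-numbered libraries from their group means correlated at -0.00907, -0.000387 and 0.00825 over 10667 genes. With 1 such deviation per group, these values cannot exclude a pairing, and what the replicate block stands for is not known.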
